A study of Mus musculus with 12 samples.

Results

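The regions described here are the 804 floxed ZFAT ChIP-seq peaks of mouse thymocytes that lay far from acetylated chromatin, out of 1719 floxed ZFAT peaks (46.8%). They were chosen by position. The summit of each lay more than 50 kb from the summit of every H3K9ac/K27ac peak on its chromosome in floxed thymocytes, and the peak overlapped none of those peaks. The other floxed ZFAT peaks were taken as 2 classes for comparison. A class of 472 (27.5%) had a summit within that distance without overlap and is called beside acetylation, and 443 (25.8%) overlapped an acetylation peak and are called inside acetylation.

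Thymocytes, which are T cells developing in the thymus, came from mice aged 4 to 5 weeks in 3 lines. Zfatf/f-LckCre animals carry floxed Zfat alleles and a Cre driven by Lck, which is designed to delete the floxed sequence in cells of the T lineage. Zfatf/f animals, called floxed here, carry the floxed alleles without Cre, and B6 animals are the unmodified strain. ZFAT was precipitated in Lck-Cre, floxed and B6 thymocytes, H3K9ac/K27ac in Lck-Cre and floxed thymocytes, and H3K9me3 in floxed thymocytes. Each was 1 library. The B6 library was called once against input and once against IgG, so 6 ChIP libraries gave 7 peak lists with 21883 peaks. The extent of the deletion was not measured in these lists, and they give no gene names, so neither Zfat nor a thymocyte marker gene could be checked in them.

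ZFAT is a nuclear protein with an AT-hook and C2H2 zinc fingers, studied for its part in the development and survival of T cells and blood cells. Acetylation of histone H3 at lysines 9 and 27 marks active promoters and enhancers. Trimethylation of lysine 9 marks silenced chromatin, including repeats, to which zinc-finger proteins with a KRAB domain are known to direct it. Whether ZFAT peaks outside acetylated chromatin recur in other libraries, and whether they carry the silencing mark, is the question these lists can address.

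The values of a peak are the P score (the −log10 of the caller's p) and the fold (ChIP over local background), both as the authors deposited them. These values together give the pileup, a whole number of fragments covering the summit, and the background, the scaled control level at that place; both were inferred. With 1 library a group, every value compares libraries and not conditions, and no p-value is given. Intervals are exact 95% intervals and cover counting error only.

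The distance that chose the members had a median of 204521.5 bp, with quartiles of 100434 and 529588 bp and a range from 50182 to 10498959 bp. Most members were therefore well past the threshold. Of the 804, 603 (75.0%) lay more than 100 kb from acetylation, 213 (26.5%) more than 500 kb and 89 (11.1%) more than 1000 kb. The members just over the threshold were chr7:148798512-148798662 (50182 bp, fold 6.20), chr4:119292753-119292905 (50194 bp, fold 4.46) and chr1:37731777-37731955 (50589 bp, fold 4.46). Just under it were chr15:97718254-97718412 (49887 bp, fold 4.45), chr16:31614211-31614395 (49793 bp, fold 5.35) and chr14:56109682-56109846 (49545 bp, fold 5.59). These 6 peaks had pileups of 4 to 16 fragments and did not separate by fold.

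The far peaks rested on few fragments. Their median pileup was 6 (quartiles 4 to 11), against 8 beside acetylation, 14 inside it and 9 over all floxed peaks. A pileup of 6 or fewer was found for 405 far peaks (50.4%), against 37.9% beside and 2.03% inside acetylation and 34.5% over all. At the other end, 19 far peaks (2.36%) had 20 or more fragments or a P score at its ceiling, against 107 (24.2%) inside acetylation. No far peak was at the ceiling, where the pileup is not known, but 4 peaks beside and 19 inside acetylation were.

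**Figure D1:**
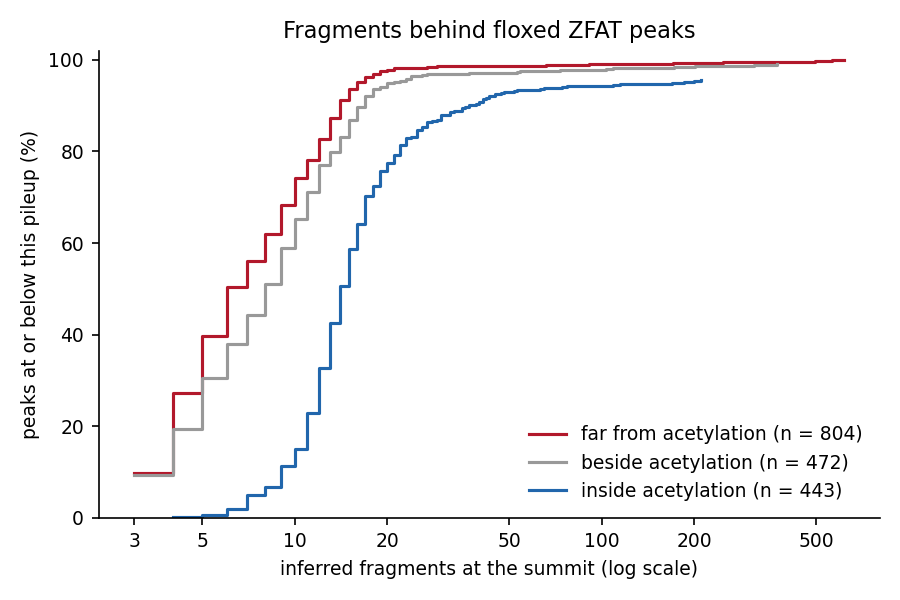
Share of floxed ZFAT peaks (%) at or below each inferred number of fragments at the summit (log scale), for the 804 far peaks, the 472 beside and the 443 inside acetylation. The far curve passes 50.4% at 6 fragments, where the inside curve is at 2.03%, and the inside and beside curves end below 100% because 19 and 4 peaks at the P score ceiling have no pileup.

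The difference was smaller on the caller's own scales, because the background under far peaks was low as well. The median P score was 8.41 for far peaks, against 9.62 inside acetylation, and the median fold was 5.35 against 5.53. The median background was 0.121 scaled fragments at far peaks, 0.265 beside acetylation, 2.04 inside it and 0.680 over all floxed peaks. The value 0.121 is the lowest that the list holds, and 404 far peaks (50.2%) lay at it, against 34.1% beside and 2.93% inside acetylation. Far peaks therefore shared identical values. The 4 commonest pairs of P score and fold, all at this lowest background, held 344 members (42.8%). They were 129 peaks with 4 fragments (P score 6.71, fold 4.46), 80 with 5 (8.41 and 5.35), 77 with 3 (5.09 and 3.57) and 58 with 6 (10.2 and 6.24).

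Far peaks were narrow. Their median width was 166 bp (interval 165 to 168, quartiles 156 to 188), against 170 bp beside acetylation, 218 bp inside it and 172 bp over all floxed peaks, where the caller assumed fragments of 150 bp. Under 200 bp wide were 669 far peaks (83.2%), against 79.7% beside and 42.7% inside acetylation. Only 17 (2.11%) exceeded 350 bp, against 68 (15.3%) inside acetylation. At a fixed pileup the classes had no order of width that held at every level. This was compared from 3 to 12 fragments only, and 32.7% of peaks inside acetylation had 12 or fewer. At 6 fragments the median width was 171 bp for far peaks, 169 bp beside and 163 bp inside acetylation, the last from 6 peaks. At 9 fragments it was 180 bp for far peaks, 169 bp beside and 236 bp inside acetylation. At 11 it was 173, 178 and 195.5 bp in that order, and at 12 it was 180, 186 and 214 bp. Peaks inside acetylation were thus the widest class at 9, 11 and 12 fragments, where they numbered 20, 34 and 44. Their median fell below that of far peaks at 6, 7 and 10 fragments, where they numbered 6, 13 and 17. The widest far peaks were chr17:39980639-39983317 (2679 bp), chr17:39985147-39985746 (600 bp) and chr8:14095597-14096189 (593 bp, fold 5.45, 10 fragments).

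Recurrence in the B6 library, a second line with an intact Zfat gene, was low. A B6 peak called against input overlapped 33 of the 804 far peaks (4.10%, interval 2.84% to 5.72%), against 20 (4.24%) beside and 89 (20.1%) inside acetylation, and 8.26% of all floxed peaks. Against IgG the count was 7 (0.871%, interval 0.351% to 1.79%), with 15 (3.18%) beside and 69 (15.6%) inside acetylation and 5.29% over all. Both B6 lists overlapped 6 far peaks (0.746%), against 11 (2.33%) beside and 65 (14.7%) inside acetylation and 4.77% over all. On the input list far peaks and those beside acetylation did not separate, whereas on the IgG list the far share was the lowest of the 3 classes. The B6 lists come from the same ChIP reads, so they differ in the control and are not replicates.

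**Figure D2:**
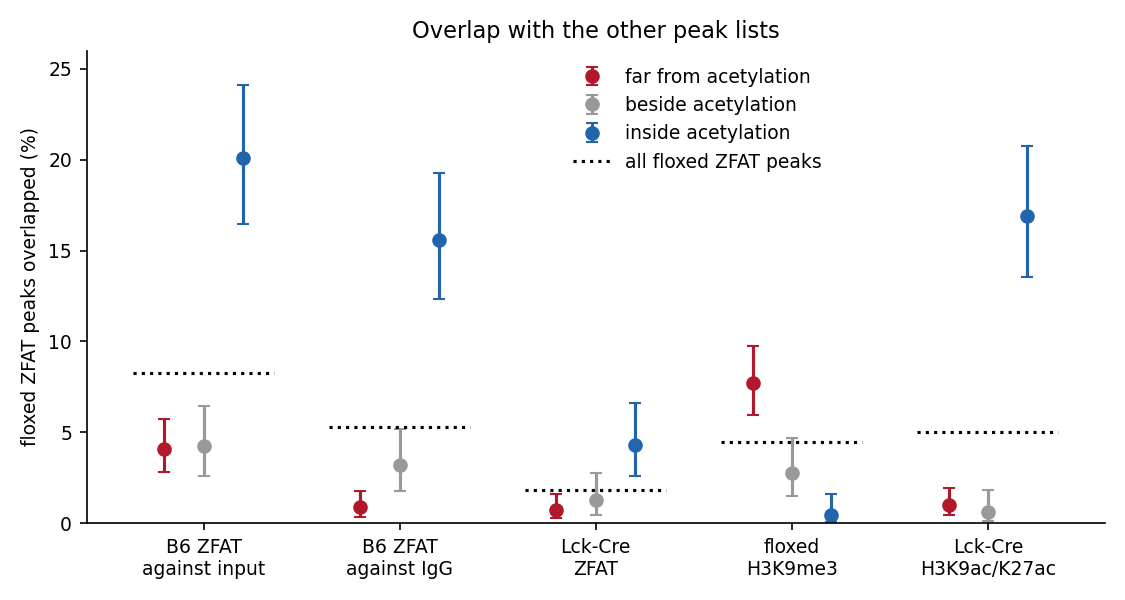
Percent of floxed ZFAT peaks overlapped by at least 1 bp by each other list, for far peaks, peaks beside and peaks inside acetylation, with exact 95% intervals for counting error; dotted lines mark all 1719 floxed peaks. Far peaks lie below the dotted line in 4 lists, at 4.10%, 0.871%, 0.746% and 0.995%, and above it for H3K9me3, at 7.71% against 4.48%.

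Among the strongest peaks, recurrence depended on the B6 control. At P scores of at least 50, each of the 8 far peaks recurred in the B6 list called against input (8 of 8, 100%, interval 63.1% to 100%), against 12 of 13 beside and 30 of 30 inside acetylation. Against IgG only 3 of the 8 recurred (37.5%, interval 8.52% to 75.5%), against 9 of 13 (69.2%) beside, 29 of 30 (96.7%) inside acetylation and 41 of 51 (80.4%) over all. These 3 stood on floxed control backgrounds of at most 4.08 scaled fragments, and the 5 others on 24.5 to 205. Of those 5, 3 lay in a span of 5733 bp on chromosome 17. They are not separate trials, so the intervals for the 8 understate the uncertainty. In the band of 20 to 50, again against input, it was 5 of 13 far peaks (38.5%), against 4 of 12 beside and 25 of 38 (65.8%) inside acetylation. From 10 to 20 it was 7 of 265 far peaks (2.64%), against 2 of 160 (1.25%) beside and 20 of 142 (14.1%) inside acetylation and 5.11% over all. Under 10 it was 13 of 518 far peaks (2.51%), against 2 of 287 (0.697%) beside and 14 of 233 (6.01%) inside acetylation and 2.79% over all. In both lower bands the far share lay between those of the other classes, and under 10 it was close to that of all floxed peaks. These lower bands hold nearly all far peaks.

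**Figure D3:**
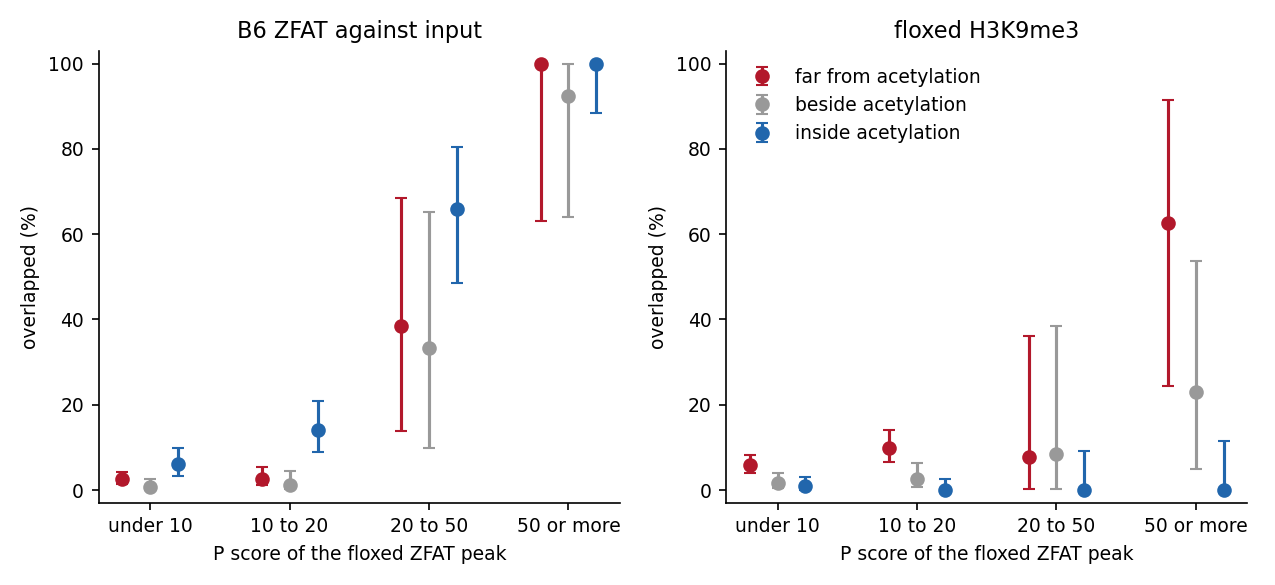
Percent of floxed ZFAT peaks overlapped by a B6 ZFAT peak called against input (left) and by a floxed H3K9me3 peak (right) within bands of the P score, for far peaks, peaks beside and peaks inside acetylation, with exact 95% intervals for counting error. B6 overlap reaches 8 of 8 far peaks at a score of 50 or more, and H3K9me3 overlap of far peaks is 5.79% under 10 and 9.81% from 10 to 20, above the other classes in both bands.

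The floxed ZFAT library held about 1508146 inferred fragments and the shallower B6 library 632460, and no B6 peak was called below 3 fragments. Scaled by that ratio of 0.419, 353 far peaks (43.9%) would hold at least 3 fragments in B6, against 263 of 472 (55.7%) beside and 421 of 443 inside acetylation. Of the 353, 24 recurred (6.80%, interval 4.40% to 9.95%), against 7.60% beside and 21.1% inside acetylation and 12.8% over all floxed peaks taken the same way. Of the 451 far peaks under that level, 9 recurred (2.00%). The gap to peaks inside acetylation thus remained at this level, though fragment numbers there still differed between the classes.

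Where a far peak did recur, the median offset to the B6 summit was 13 bp, and 30 of 33 lay within 50 bp. These pairs were chosen by overlap and most peaks were narrow, so large offsets were mostly shut out beforehand. The median pileup was 15 fragments in floxed and 9 in B6 thymocytes, and the median fold 5.35 in floxed and 6.30 in B6 thymocytes. The B6 fold was the higher at 18 of the 33, so the folds had no common direction. Of the 33 regions, 6 lay where the floxed background was 20 or more, and their pileups had medians of 387 in floxed and 308.5 in B6 thymocytes at folds of only 3.34 in floxed and 4.62 in B6 thymocytes. The 27 others had medians of 11 fragments in floxed and 8 in B6 thymocytes, at folds of 5.91 in floxed and 6.66 in B6 thymocytes. Far peaks with a B6 peak had a median pileup of 15 and a background of 1.36, against 6 and 0.121 for those without.

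**Figure D4:**
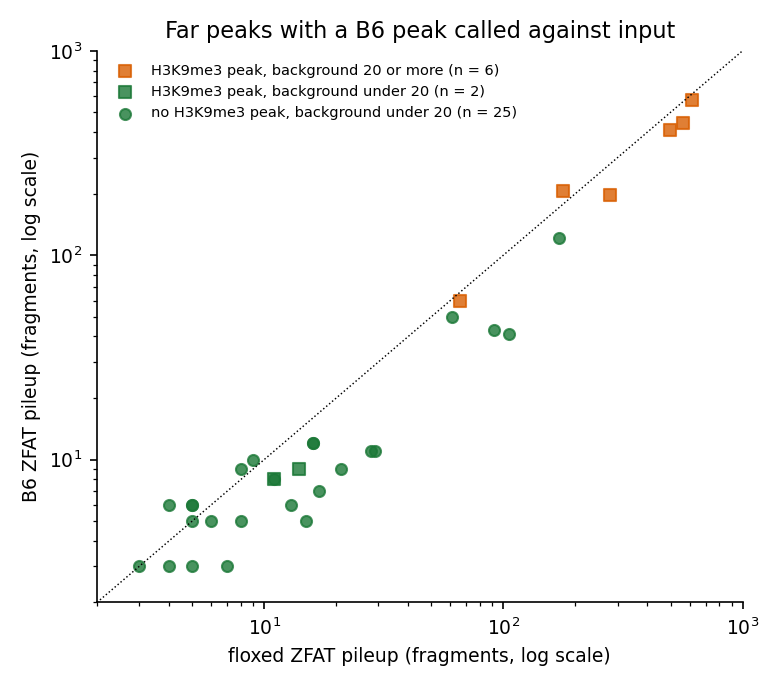
Fragments at the summit in floxed (horizontal) and B6 thymocytes (vertical), both on log scales, for the 33 far peaks that recurred in the B6 list called against input; the dotted line marks equal numbers. Squares carry an H3K9me3 peak and orange marks a floxed control background of 20 or more: these 6 regions are all squares with at least 60 B6 fragments, and 19 of the 33 regions have 10 B6 fragments or fewer.

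The 6 far peaks present in both B6 lists included the strongest of all. At chr16:57606587-57607133, 57.5 kb from acetylation, the floxed ZFAT fold was 33.9 from 171 fragments (Poisson interval 146 to 199), and the B6 fold was 49.0 against input and 86.3 against IgG. At chr2:57034209-57034410, 56.4 kb from acetylation, the floxed fold was 45.3 from 106 fragments, and the B6 folds were 40.0 against input and 22.0 against IgG. Both regions were strong in both lines on a background of at most 4.08 scaled floxed fragments. The peak at chr6:126889196-126889742, 391 kb from acetylation, had a floxed fold of 18.1 (91 fragments) and B6 folds of 15.4 against input and 8.65 against IgG. The peak at chr13:74075008-74075266 had a floxed fold of 12.2 (61 fragments) and B6 folds of 24.1 and 11.0 against the same controls. The remaining pair was weaker. At chr4:133742786-133742954 the floxed fold was 9.54 (28 fragments) against B6 folds of 11.1 and 8.25, and at chr9:19770919-19771070 it was 4.46 (4 fragments) against 3.81 in both B6 lists, where 3 fragments were found. H3K9me3 was called at 0 of these 6 regions, but over all far peaks the share was only 7.71%, so 6 regions are too few to compare.

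Few far peaks were called in the Lck-Cre ZFAT library, whose list held only 108 peaks, against 1719 in floxed thymocytes. That size caps the share that could recur in every class. Of the 64 Lck-Cre ZFAT peaks far from acetylation, 8 (12.5%) overlapped a floxed ZFAT peak, against 27 of the other 44 (61.4%). An Lck-Cre peak overlapped 6 far peaks (0.746%, interval 0.274% to 1.62%), against 6 (1.27%) beside and 19 (4.29%) inside acetylation, and 1.80% of all floxed peaks. At P scores of at least 50, 5 of 8 far peaks (62.5%) were overlapped, against 30 of 51 (58.8%) over all floxed peaks. Of these 5, 3 lay at a floxed control background of 20 or more, 2 of them close together on chromosome 17. Of the 265 with a score from 10 to 20 none was, and a count of 0 allows a share of up to 1.13% (3 counts of 265), and under 10 it was 1 of 518. The Lck-Cre library was nearly as deep, at about 1350052 inferred fragments against 1508146 in floxed thymocytes. Scaled to it, 726 far peaks (90.3%) would hold at least 3 fragments, and 6 of these (0.826%) recurred, against 1.94% over all floxed peaks taken the same way.

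At the strongest pair the Lck-Cre signal was far below the floxed one. At chr16:57606587-57607133, 23 fragments were found in Lck-Cre and 171 in floxed thymocytes, with a fold of 2.60 in Lck-Cre on a background of 8.24 and of 33.9 in floxed thymocytes on 4.08. At chr2:57034209-57034410 it was 13 in Lck-Cre and 106 in floxed thymocytes, with a fold of 12.6 in Lck-Cre and 45.3 in floxed thymocytes. At these regions the Lck-Cre pileup was thus lower by more than the ratio of inferred depths, 0.895. At the high-background regions it was not. The pileup was 578 in Lck-Cre and 617 in floxed thymocytes at chr17:39980639-39983317, and 538 in Lck-Cre and 495 in floxed thymocytes at chr17:39985147-39985746, with backgrounds of 351 in Lck-Cre and 184 in floxed thymocytes at the first and 397 in Lck-Cre and 205 in floxed thymocytes at the second. At chr9:3019100-3019446 the fold was higher in Lck-Cre, at 14.0 from 182 fragments, against 7.03 from 178 in floxed thymocytes, on a background of 12.1 in Lck-Cre and 24.5 in floxed thymocytes. The last region, chr14:52478139-52478304, rested on 3 fragments in Lck-Cre and 5 in floxed thymocytes. The controls of both lists are not named in the headers, so a difference in fold holds the difference in control level too.

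H3K9me3 peaks overlapped a larger share of far peaks than of the 2 other classes, which by the rule lay near or inside acetylation. An H3K9me3 peak of floxed thymocytes overlapped 62 far peaks (7.71%, interval 5.96% to 9.78%), against 13 (2.75%, 1.47% to 4.66%) beside and 2 (0.451%) inside acetylation, and 4.48% of all floxed peaks. Far peaks thus held 62 of the 77 overlaps. The order held within the bands of the P score that hold most peaks. Under 10 the share was 5.79% of 518 far peaks, against 1.74% of 287 beside acetylation and 2 of 233 inside it. From 10 to 20 it was 9.81% of 265 far peaks, against 2.50% of 160 beside and 0 of 142 inside acetylation.

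The H3K9me3 list itself lay mostly far from acetylation, and this bears on the count. Of its 2388 peaks, 1910 (80.0%) met the same distance rule. Of those 1910, 62 (3.25%) overlapped a floxed ZFAT peak, against 15 of the other 478 (3.14%). Seen from the H3K9me3 peaks, ZFAT overlap was therefore no more frequent far from acetylation than near it. The same view of the B6 list called against input gave another picture: of its 956 peaks far from acetylation, 34 (3.56%) overlapped a floxed ZFAT peak, against 112 of the other 1044 (10.7%).

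The H3K9me3 share differed by distance within the far peaks. It was 44 of 408 (10.8%, interval 7.95% to 14.2%) beyond 200 kb, against 18 of 396 (4.55%, 2.72% to 7.09%) from 50 to 200 kb. Leaving out regions with a background of 20 or more, it was 40 of 403 (9.93%) beyond 200 kb and 16 of 394 (4.06%) from 50 to 200 kb. In finer steps it was 5.47% from 50 to 100 kb, 3.59% from 100 to 200 kb, 9.74% from 200 to 500 kb, 12.1% from 500 to 1000 kb and 11.2% beyond. The H3K9me3 peaks themselves were not counted by these steps. Whether the share at far ZFAT peaks only follows where H3K9me3 peaks lie was not tested. B6 overlap over the same steps was 3.98%, 3.59%, 2.56%, 5.65% and 6.74%, with intervals that all overlapped. Of the 7 far peaks with a B6 peak called against IgG, 5 lay among the 201 from 50 to 100 kb (2.49%) and 2 among the 603 beyond (0.332%).

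**Figure D5:**
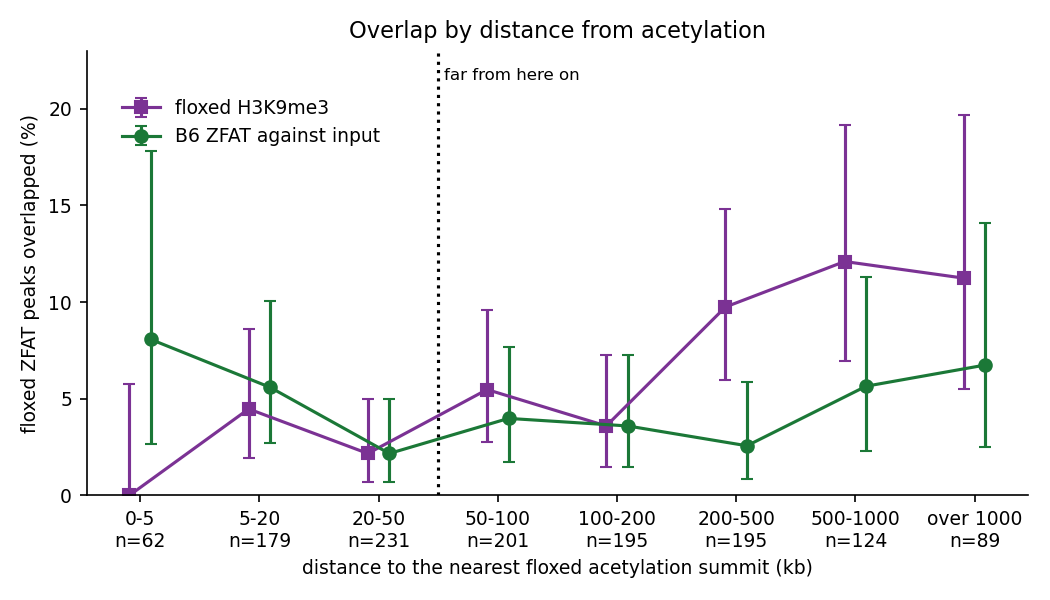
Percent of floxed ZFAT peaks overlapped by a floxed H3K9me3 peak (squares) and by a B6 ZFAT peak called against input (circles) by distance to the nearest floxed acetylation summit in kb, peaks inside acetylation left out, with exact 95% intervals for counting error; n is the number of peaks in each step. Far peaks begin right of the dotted line, and the H3K9me3 share is 9.74% to 12.1% in the 3 steps beyond 200 kb, against 5.47% and 3.59% in the 2 far steps before it.

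At the overlaps with H3K9me3 the summits lay a median of 21 bp apart, 48 of 62 within 50 bp. Choosing pairs by overlap limits this distance too. Compared with the 742 far peaks without the mark, the 62 had a median pileup of 11 against 6, a background of 0.680 against 0.121 and a fold of 5.93 against 5.35. Their median width was 193.5 bp against 166 bp, and their distance from acetylation 342350 bp against 193615.5 bp. The H3K9me3 peaks at far ZFAT peaks had a median background of 2.85 scaled fragments, against 1.43 in the other 2326 H3K9me3 peaks, at a fold of 5.09 against 5.67. Whether this higher control level has a part in the overlap was not tested.

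Control background was high at few far peaks, but those were among the strongest. A background of 20 or more was found at 7 of the 804, of 12 such peaks in the whole floxed list. Of these 7, 6 carried an H3K9me3 peak, 6 a B6 peak called against input, 3 an Lck-Cre ZFAT peak and none a B6 peak called against IgG. Without them, 56 of 797 far peaks (7.03%) carried H3K9me3, 27 (3.39%) a B6 peak called against input and 3 (0.376%) an Lck-Cre peak. The joint occurrence of B6 and H3K9me3 rested on them. A B6 peak called against input was found at 8 of 62 far peaks with H3K9me3 (12.9%), against 25 of 742 without (3.37%), but at 2 of 56 (3.57%) against 25 of 741 (3.37%) once the 7 were left out.

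Of the 10 strongest far peaks, 6 lay at such a background. In the group of 4 at chr17:39980014-39985746, a span of 5733 bp, floxed ZFAT pileups ran from 248 to 617 fragments on backgrounds of 86.3 to 205, so the folds were only 2.41 to 3.35. Of these 4, 3 carried an H3K9me3 peak, at H3K9me3 folds of 2.44 to 3.42. The peak at chr16:57391595-57391773 had a ZFAT fold of 6.39 and an H3K9me3 fold of 4.59, on backgrounds of 42.8 and 70.8. The sixth was chr9:3019100-3019446, with a ZFAT fold of 7.03 and an H3K9me3 fold of 2.49. At these positions the control was high in each list that called them, apart from the chromosome 9 region in Lck-Cre.

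The next strongest far peaks with H3K9me3 stood on low backgrounds. At chr6:131518572-131518754 the floxed ZFAT fold was 12.5 from 14 fragments and the H3K9me3 fold 7.01 from 14 fragments, and B6 thymocytes had a ZFAT fold of 9.36 against input. At chr19:12212624-12212813 the ZFAT fold was 10.5 (11 fragments) and the H3K9me3 fold 8.91 (13 fragments). The peaks at chr10:77233355-77233609 and chr8:67570457-67570639 both had a ZFAT fold of 9.81 from 10 fragments, with H3K9me3 folds of 8.08 and 6.34 in that order. At chr9:117750085-117750253 the ZFAT fold was 9.97 and the H3K9me3 fold 5.14. Among these 5 only the first had a B6 peak, and none had an Lck-Cre peak. Over all far peaks the share was 4.10% for B6 called against input and 0.746% for Lck-Cre.

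Far peaks were mostly solitary. The nearest other floxed ZFAT peak lay at a median of 516876 bp (interval 467547 to 581660), against 218220 bp for peaks beside acetylation, 214496 bp for those inside it and 327030 bp over all floxed peaks. Another floxed ZFAT peak lay within 10 kb of 24 far peaks (2.99%), against 46 (9.75%) beside and 40 (9.03%) inside acetylation and 110 (6.40%) over all. Within 100 kb it was 116 far peaks (14.4%), against 31.6% beside and 33.9% inside acetylation. The rule itself bears on these contrasts. Far peaks lay more than 50 kb from every acetylation summit, and each peak inside acetylation within 1252 bp of one. No peak inside acetylation could therefore lie within 10 kb of a far peak. Of those beside acetylation, only the ones near the 50 kb limit could. Peaks inside and beside acetylation could neighbour each other. Whether the wider spacing of far peaks goes beyond the rule was not tested. Chaining neighbours within 10 kb gave 11 groups of 24 far peaks, 10 of them pairs, and 780 stood alone. After the chromosome 17 group, the pair at chr6:126889196-126892922 had folds of 9.21 to 18.1 from 27 to 91 fragments, and 1 of its peaks recurred in B6. The pair at chr10:8470621-8477611 had folds of 7.14 to 8.92 from 9 to 11 fragments, and neither recurred.

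The farthest peaks lay on chromosome X. At chrX:115510012-115510402 the nearest acetylation summit was 10499 kb away and the ZFAT fold 9.14 (10 fragments). At chrX:115000263-115000425 it was 9989 kb away, with a ZFAT fold of 4.46 (4 fragments) and an H3K9me3 peak of fold 5.09. At chrX:114048307-114048666 it was 9037 kb away and the fold 8.03 (8 fragments). None of these 3 had a B6 or Lck-Cre ZFAT peak. Over all far peaks the share was 4.10% for B6 called against input and 0.746% for Lck-Cre, so 3 peaks are too few to compare.

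The rule did not use the Lck-Cre acetylation list. An Lck-Cre H3K9ac/K27ac peak overlapped 8 far peaks (0.995%, interval 0.431% to 1.95%), against 3 (0.636%) beside and 75 (16.9%) inside acetylation, and 5.00% of all floxed peaks. An Lck-Cre acetylation summit lay within 50 kb of 32 far peaks (3.98%), against 112 (23.7%) beside and 166 (37.5%) inside acetylation. Lck-Cre acetylation peaks thus overlapped few far peaks and few peaks beside acetylation. The rule bears on these shares, because both classes were defined by overlapping no peak of the same mark in floxed thymocytes. Far peaks were also placed more than 50 kb from its summits there. The shares are therefore not a separate check on the classes. The Lck-Cre acetylation list held 2225 peaks, against 13016 in the floxed one. Its inferred depth was about 1342879 fragments, against 2190828. A low overlap therefore does not show that far peaks lacked acetylation in Lck-Cre thymocytes. Of the 804, 708 (88.1%) were overlapped by no B6, Lck-Cre or H3K9me3 peak, against 436 (92.4%) beside and 297 (67.0%) inside acetylation and 83.8% of all floxed peaks.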

How the data were processed

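Peaks were called per library by the authors with MACS on mm9, per the submitters' processing notes, which further list Trimmomatic 0.22, SAMtools 0.1.18 and CASAVA 1.8.1. Which aligner was used is not given in the sources. Chromatin was fixed with 1% formaldehyde, digested with 375 units of micrococcal nuclease and sonicated, per the labels' protocols. Per the file headers, the fragment length was 150 bp, the p threshold 1e-05 and the effective genome 1870000000 bp, and the P score is a −log10 value. The fold of each peak is the authors' deposited ratio of ChIP to local background.

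Overlap needed 1 shared bp. A whole pileup was solved from each pair of P score and fold, taking the fold as pileup plus 1 over background plus 1 and p as the Poisson tail, within 0.0001 on the P score; this was tested on simulated data. Library depth is unknown from the lists, and was inferred from each list's lowest background. Duplicate reads were not assessed. Percents have Clopper-Pearson 95% intervals, medians order-statistic ones. No mm9 genome or annotation was used here, so genes, gene families and sequences are not reported.

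Named regions are, by P score, the 10 strongest far peaks, those with an Lck-Cre peak, those in both B6 lists, the 10 strongest with H3K9me3, the 3 widest, the 3 largest groups, the 3 farthest, and those at the threshold. The members, classes and rules were chosen with earlier results of these data known. Alternatives changed the distance, the score thresholds and the overlap. Python 3.11.15, numpy 2.4.6, pandas 2.3.3, scipy 1.17.1 and matplotlib 3.10.9 were used.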

Additional observations from a re-analysis of the deposited data

How the results depend on the processing

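Of 111 alternative values for 12 results under 11 settings, 17 moved by more than their error or, for the number of far peaks, by more than 1.5 times. That number was 1035 at 20 kb and 603 at 100 kb, against 804. Raising the ZFAT threshold to a P score of 10 left 286 far peaks. There the share with a B6 peak was 6.99% against input and 2.10% against IgG, with an Lck-Cre ZFAT peak 1.75%, with H3K9me3 11.2% and with Lck-Cre acetylation 2.10%. Their median width was 176 bp, P score 12.2, fold 7.33 and pileup 10, and the distance to the nearest other ZFAT peak 1231016 bp, as fewer peaks were left. Asking for a P score of 10 or more in the other list gave 4.48% for H3K9me3 and 0.249% for Lck-Cre acetylation. With the distance at 100 kb, 0.332% had a B6 peak called against IgG. The spacing was 426890 bp at 20 kb and 598507 bp at 100 kb. Adding the Lck-Cre acetylation list to the rule gave 0 overlaps with it by construction. No paired analysis was possible because each group had 1 ChIP library, and no library could be left out for the same reason. Scaled to the B6 depth, 451 of 804 far peaks fall under the lowest called pileup, against 78 for Lck-Cre. Absence of those 451 from the B6 list is therefore hard to read, though 9 of them recurred, so the level does not mark what could be detected. The part of depth in the low B6 share was not tested.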

Other observations

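Chromosomes differed in how many of their floxed ZFAT peaks were far from acetylation, a share that the rule ties to the acetylation list. On chromosome X it was 44 of 56 (78.6%, interval 65.6% to 88.4%), with 236 acetylation peaks. On chromosome 11 it was 27 of 114 (23.7%, interval 16.2% to 32.6%), with 1240 acetylation peaks. Of the 44 far peaks on chromosome X, 0 recurred in the B6 list called against input and 2 overlapped H3K9me3. Over all far peaks these shares were 4.10% and 7.71%, so 44 peaks are too few to set chromosome X apart.

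The 8 far peaks with an Lck-Cre acetylation peak were singled out after their values were seen. Their Lck-Cre acetylation folds ran from 3.61 to 9.59 from a median of 5.5 fragments, with 14 to 118 bp between the acetylation and ZFAT summits. At chr5:112306383-112306606 the acetylation fold in Lck-Cre thymocytes was 9.59 (10 fragments) and the ZFAT fold in floxed thymocytes 8.92 (9 fragments). At chr9:16671115-16671308 an H3K9me3 peak of fold 7.78 (9 fragments) lay under the same floxed ZFAT peak as an Lck-Cre acetylation peak of fold 4.86 (6 fragments). None of the 8 had a B6 peak called against input, but over all far peaks the share was only 4.10%, so 8 peaks are too few to compare.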
